A study of Mus musculus with 6 samples.

Results

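The MHC class I heavy chain genes were taken as every gene in the deposited expression table whose mouse symbol begins with H2- followed by D, K, L, Q, T or M and a digit. The rule kept 30 of 54532 genes, and none of them had the letter L. All 30 lay on chromosome 17, with 1 in the D group, 2 in the K group, 8 in the Q group, 5 in the T group and 14 in the M group. Of these, 24 were annotated as protein coding and 6 as pseudogenes of some kind.

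RNA sequencing was performed on cells that the study names mouse aortic smooth muscle cells (MASMCs). In the vessel wall such cells are contractile, and their markers in these libraries are given below. The cells carried an adenoviral vector with either a plasmid for pyruvate dehydrogenase kinase 4 (Ad-PDK4, n = 3) or a control plasmid (Ad-Con, n = 3). Per the study's methods the cells came from the abdominal aortas of wild-type mice, were passaged in culture, and in both groups received angiotensin II (Ang II) after the vector. The labels give the genotype as WT and do not mention Ang II, and cells without vector or without Ang II were not analysed here. The labels give no strain, and the study calls the libraries biological replicates without saying whether they came from separate animals, so p-values measure only the spread between these samples, which may be technical. The comparison asks how the vector labelled as carrying PDK4 changed the mRNA levels of the heavy chain genes in Ang II-treated MASMCs.

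A class I molecule is a heavy chain held by beta-2-microglobulin (B2m), which carries a peptide from inside the cell to its surface. The classical heavy chains, encoded in mice by the D and K genes, show such peptides to CD8 T cells on nearly all nucleated cells. The non-classical Q, T and M genes encode heavy chains with narrower distribution and more specialised ligands. Transcription of the classical genes is known to be raised by interferon regulatory factors (IRF), by NF-κB and by the transactivator NLRC5.

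The libraries held 17588942 to 21861872 assigned reads, recovered from FPKM and gene length. The targeted gene Pdk4 went against its label. It stood at 9.50, 10.4 and 10.1 FPKM (fragments per kilobase of gene length, scaled to library size) in Ad-Con-labelled libraries and at 7.67, 7.40 and 7.38 FPKM in Ad-PDK4-labelled ones, a fall by 0.42 on the log2 scale (SE 0.06, limma adjusted p = 1.1e-03). Every direction below is therefore between libraries as labelled. Of 12 smooth muscle markers, 7 passed the filter on low values (a mean of at least 0.5 FPKM over all libraries), with 1 higher (Cald1, 0.36 on the log2 scale) and 2 lower (Acta2 and Tpm2), and Tpm1, Myl9, Smtn and Lmod1 did not pass the test. Acta2, smooth muscle actin, fell by 1.11 on the log2 scale, from 78.0 ± 0.950 to 36.2 ± 2.40 FPKM (SD, n = 3). The other 5, Mylk, Cnn1, Des, Tagln and Myh11, lay under the filter. Mylk went from 188, 168 and 122 reads in Ad-Con-labelled libraries to 27, 28 and 24 in Ad-PDK4-labelled ones. Its ratio, from the reads summed over each group, was 0.160 with an interval from counting error of 0.125 to 0.204. Des and Cnn1 were also lower without overlap between the groups, at ratios of 0.249 and 0.525. The groups overlapped in Tagln (0.868) and in Myh11, which went the other way (3.07). The contractile markers Myh11 and Tagln had no more than 10 and 20 reads in any library. All 6 fibroblast markers passed the filter, with Dcn higher and Col1a1, Col1a2, Col3a1 and Lum lower, while Pdgfra differed by -0.05 on the log2 scale. Their summed level was 1544 to 1667 FPKM in Ad-Con-labelled libraries and 830 to 924 FPKM in Ad-PDK4-labelled ones, and the part of this shift in the heavy chain values was not tested. Among the housekeeping genes described here, Eef2, Rplp0 and Ppia were lower by less than 2-fold, and Actb, Ywhaz, Sdha, Hprt and Tbp did not pass the test.

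Of the 30 heavy chain genes, 12 passed the filter, and mRNA levels of all 12 were higher in the libraries labelled Ad-PDK4 (limma on log2(FPKM + 0.1), Benjamini-Hochberg adjusted p below 0.05 over the 13423 genes tested). None was lower. Across all tested genes 21.8% were higher and 20.8% lower by the same rule. With a fold change of at least 2 also required, 11 of the 12 were called higher, against 3.95% of all tested genes, and 2.68% of all genes were called lower. In each of the 12 genes the lowest library labelled Ad-PDK4 lay above the highest library labelled Ad-Con, which held for 27.8% of all tested genes, while 54.3% had no overlap in either direction. H2-Q5, H2-Q6 and H2-Q7 passed the filter only through the libraries labelled Ad-PDK4, so their direction was fixed by the filter, and the other 9 also passed it on the Ad-Con mean alone. The median log2 difference was 1.88 over those 9 genes and 2.58 over the 12, beside -0.0031 over all tested genes. In bulk RNA, more cells expressing a gene and more RNA per cell cannot be told apart.

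**Figure D1:**
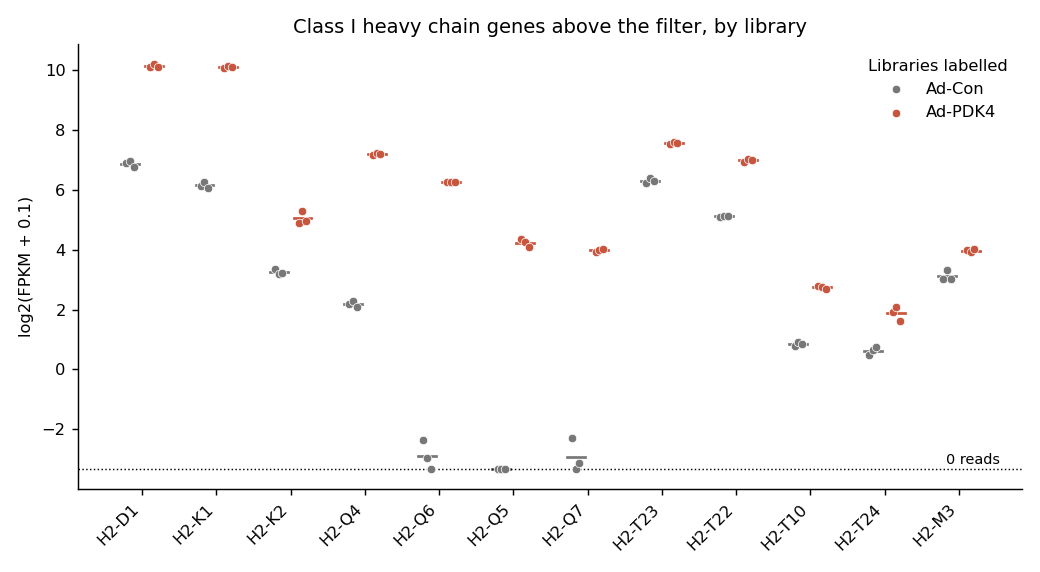
log2(FPKM + 0.1) of the 12 heavy chain genes above the filter, with 1 point per library, bars at the group mean (n = 3) and a dotted line at 0 reads. In every gene the 3 libraries labelled Ad-PDK4 (red) lie above the 3 labelled Ad-Con (grey), and H2-Q5, H2-Q6 and H2-Q7 start at or near 0 reads.

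The classical genes H2-K1 and H2-D1, the principal peptide-presenting heavy chains, moved from moderate levels to among the most abundant mRNAs in the cells. H2-K1 (ENSMUSG00000061232, GRCm38 chr17:33996017-34000333, minus strand) stood at 69.6, 76.3 and 67.2 FPKM in Ad-Con-labelled libraries and at 1087, 1141 and 1100 FPKM in Ad-PDK4-labelled ones. The groups lay far apart, and the libraries within each differed by a coefficient of variation of 6.57% and 2.53%. The log2 fold change of H2-K1 was 3.96 (SE 0.06, limma adjusted p = 1.5e-08), which placed it at rank 60 of 13423 tested genes. H2-D1 (ENSMUSG00000073411, chr17:35262730-35267499, plus strand) stood at 118, 124 and 109 FPKM in Ad-Con-labelled libraries and at 1115, 1179 and 1106 FPKM in Ad-PDK4-labelled ones. Its log2 fold change was 3.27 (SE 0.06, limma adjusted p = 3.4e-08). By mean FPKM, H2-D1 ranked 372 among all genes in Ad-Con-labelled libraries and 15 in Ad-PDK4-labelled ones, and H2-K1 ranked 691 and 17.

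H2-K1 was the lower of the pair in every library, but by much less in Ad-PDK4-labelled libraries. The ratio of H2-K1 to H2-D1 FPKM was 0.588, 0.613 and 0.616 in Ad-Con-labelled libraries and 0.975, 0.968 and 0.995 in Ad-PDK4-labelled ones. This ratio inside a library does not depend on how libraries were scaled. The log2 ratio differed by 0.69 between the groups (exact two-sided permutation test, p = 0.1, the smallest that 20 arrangements of the 6 libraries allow). In the libraries labelled Ad-PDK4 the levels of H2-D1 (1133 ± 39.9 FPKM) and H2-K1 (1110 ± 28.1 FPKM, SD, n = 3) overlapped.

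H2-K2, annotated as an unprocessed pseudogene beside H2-K1 (chr17:33974831-33978790, minus strand), had 10.2, 9.12 and 9.31 FPKM in Ad-Con-labelled libraries and 29.7, 39.4 and 31.0 FPKM in Ad-PDK4-labelled ones. It rose by 1.79 on the log2 scale (SE 0.11, limma adjusted p = 1.3e-05), beside 3.96 and 3.27 for the classical genes. Of the distinct 100-base windows of its annotated transcripts, 1.60% occur in transcripts of other genes, beside 0.957% for H2-K1 and 3.59% for H2-D1. These 3 genes thus shared little identical sequence with other genes.

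The Q genes lie next to H2-D1 and include H2-Q7, which encodes the Qa-2 antigen, and 4 of the 8 passed the filter. H2-Q4 (chr17:35379617-35385290, plus strand) was the only one above 1 FPKM in Ad-Con-labelled libraries, at 4.43, 4.74 and 4.16 FPKM. It reached 144, 149 and 146 FPKM in Ad-PDK4-labelled libraries (log2 fold change 5.01, SE 0.06, limma adjusted p = 8.8e-09), and so passed H2-T22 in level. An antisense gene, Gm11131, overlaps H2-Q4 and shares 11.8% of its windows. Gm11131 itself had a mean of 0.182 FPKM in Ad-Con-labelled libraries and 1.77 FPKM in Ad-PDK4-labelled ones, and since the strand setting of the counting is not given, reads in the overlap cannot be assigned to one of the pair.

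H2-Q5, H2-Q6 and H2-Q7 were at or near 0 reads in Ad-Con-labelled libraries and well measured in Ad-PDK4-labelled ones. H2-Q6 (chr17:35424850-35430055, plus strand) had 4, 1 and 0 reads in Ad-Con-labelled libraries and 2947, 2794 and 3544 reads in Ad-PDK4-labelled ones, the last being 77.7, 76.6 and 77.0 FPKM. Its ratio, from the reads summed over each group, was 1801 with a 95% interval from counting error of 771 to 5548. H2-Q7 (chr17:35439155-35443773, plus strand) had 9, 0 and 1 reads in Ad-Con-labelled libraries and 1179, 1175 and 1507 in Ad-PDK4-labelled ones, at 15.2, 15.7 and 15.997 FPKM. Its ratio was 374, with a counting interval of 203 to 781.

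H2-Q5 (chr17:35394126-35397800, plus strand), annotated as a polymorphic pseudogene, had 0 reads in all 3 libraries labelled Ad-Con and 586, 530 and 595 reads in Ad-PDK4-labelled ones, at 20.2, 19.0 and 16.9 FPKM. Against a floor of 3 reads in each Ad-Con library it was at least 185-fold higher. The fitted log2 changes, 7.55 for H2-Q5, 9.16 for H2-Q6 and 6.90 for H2-Q7, depend on the pseudocount, and no p-value is given for genes that passed the filter only where they are high. These genes share sequence, with 11.4% of the windows of H2-Q5 and 8.36% of those of H2-Q6 also present in H2-Q7, so the division of reads among them is less certain than their sum. Intervals and floors cover counting error only.

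The other Q genes stayed close to the floor and were not tested. H2-Q10, which encodes a secreted heavy chain made mainly in liver, had 0, 4 and 1 reads in Ad-Con-labelled libraries and 20, 11 and 20 in Ad-PDK4-labelled ones, a ratio of 9.89 with a counting interval of 3.97 to 31.8. H2-Q1 had 5, 2 and 0 reads against 14, 6 and 12, a ratio of 4.43 with an interval of 1.92 to 11.9. Of the windows of H2-Q10, 5.81% also occur in H2-Q7, and of those of H2-Q1, 3.39% occur in H2-Q2 and 2.72% in H2-D1. How reads were divided among these genes was not examined. H2-Q2 had 3 reads in 1 library labelled Ad-PDK4 and 0 elsewhere, and H2-Q3, a pseudogene, had 0 reads in all 6.

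**Figure D2:**
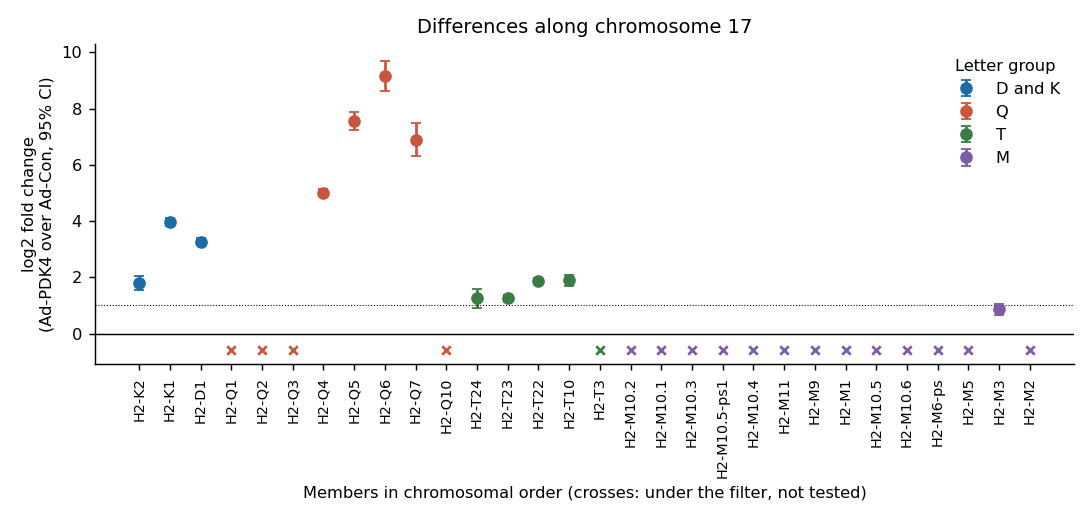
log2 fold change (Ad-PDK4 over Ad-Con libraries, with 95% confidence intervals from limma) of the heavy chain genes in their order along chromosome 17, coloured by letter group. Crosses mark the 18 genes under the filter, the dotted line marks a 2-fold change, and the fitted values of the 4 tested Q genes run from 5.01 to 9.16. H2-Q5, H2-Q6 and H2-Q7 passed the filter only through the Ad-PDK4-labelled libraries. Their points depend on the pseudocount, which their intervals leave out.

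The promoters were read to see which regulatory letters these genes have in common. RefSeq (GRCm38.p6) windows from 250 bases before to 50 after the gene start were found for 22 of the 30 heavy chain genes, 8 of them among the 12 tested. For H2-D1 the RefSeq start lay 364 bases from the start in the deposited table. The following 90-base stretches, each 5′ to 3′ on the gene's own strand, show the region in the classical and Q genes, with capitals marking matches on either strand to the NF-κB consensus, to the IRF half-site pair AANNGAAA (read here mostly as its reverse complement TTTCACTT) and to CACTGATGA. The last stretch was chosen after the sequences had been seen.
H2-K1, chr17:34000374-34000463 (-): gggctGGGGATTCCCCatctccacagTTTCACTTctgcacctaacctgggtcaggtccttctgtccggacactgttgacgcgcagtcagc
H2-D1, chr17:35262918-35263007 (+): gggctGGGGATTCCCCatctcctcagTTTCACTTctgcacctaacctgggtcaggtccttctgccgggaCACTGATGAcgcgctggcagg
H2-Q4, chr17:35379438-35379527 (+): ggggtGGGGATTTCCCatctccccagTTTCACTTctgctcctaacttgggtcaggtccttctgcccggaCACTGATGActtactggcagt
H2-Q6, chr17:35424672-35424761 (+): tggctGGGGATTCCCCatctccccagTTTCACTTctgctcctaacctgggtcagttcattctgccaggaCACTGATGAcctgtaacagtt
H2-Q7, chr17:35439016-35439105 (+): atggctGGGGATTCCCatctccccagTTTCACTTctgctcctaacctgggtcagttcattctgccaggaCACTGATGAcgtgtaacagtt
H2-Q10, chr17:35469908-35469997 (+): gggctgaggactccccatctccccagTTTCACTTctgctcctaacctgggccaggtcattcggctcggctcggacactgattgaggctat

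In the first 5 of these genes an NF-κB match and the IRF match stand a few bases apart, at the same spacing or within 1 base of it, and both stretches are nearly identical between H2-K1, H2-D1, H2-Q4, H2-Q6 and H2-Q7. H2-Q10 holds the IRF match, and the NF-κB letters were not found in its window. CACTGATGA is present in H2-D1, H2-Q4, H2-Q6 and H2-Q7 and not in H2-K1. The T and M genes for which a window was found differ more, and H2-M2 is shown because it holds all 3 patterns while its reads stayed near the floor.
H2-T23, chr17:36032762-36032851 (-): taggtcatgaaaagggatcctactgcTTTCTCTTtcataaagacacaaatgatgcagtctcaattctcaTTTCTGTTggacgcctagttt
H2-T22, chr17:36042870-36042959 (-): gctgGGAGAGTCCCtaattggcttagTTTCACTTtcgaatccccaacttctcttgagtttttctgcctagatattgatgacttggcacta
H2-M3, chr17:37270107-37270196 (+): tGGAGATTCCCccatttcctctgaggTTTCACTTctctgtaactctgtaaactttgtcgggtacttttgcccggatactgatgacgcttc
H2-M2, chr17:37483633-37483722 (-): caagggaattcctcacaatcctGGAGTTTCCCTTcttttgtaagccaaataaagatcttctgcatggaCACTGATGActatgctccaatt

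The IRF pattern was present in 8 of the 8 tested and 6 of the 14 untested heavy chain promoters, against 23.9% of 32851 mouse promoters. The NF-κB consensus was present in 7 of the 8 tested ones, with H2-T23 as the exception, and in 1 of the 14 untested ones, against 4.51% of promoters. Both together were present in 0.855% of promoters. CACTGATGA was present in 4 of the 8 tested and 1 of the 14 untested promoters, against 0.244%. H2-Q6 and H2-Q7 are among the 8 only through the libraries labelled Ad-PDK4, and each holds all 3 patterns. The split into tested and untested promoters therefore depends in part on where these genes are high. All 3 patterns were present in 6 promoters of 32851, of which 5 belonged to heavy chain genes. CACTGATGA was picked from these sequences, so its counts in them and the count of all 3 patterns follow from that choice. The stretches of H2-K1, H2-D1, H2-Q4, H2-Q6 and H2-Q7 are also nearly identical, so these promoters are not separate cases. In the stretches shown, an IRF and an NF-κB match overlap in H2-M2. A match describes letters in the window and is not a measured binding site.

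The T genes lie further along the chromosome and include H2-T23 (Qa-1, the ligand of CD94/NKG2 receptors on natural killer cells). The 4 that were tested had fitted log2 changes of 1.25 to 1.89, and of these H2-T23 and H2-T22 were well expressed in both groups. H2-T23 (chr17:36029773-36032855, minus strand) stood at 75.3, 83.3 and 78.2 FPKM in Ad-Con-labelled libraries, overlapping H2-K1 there, and at 184, 194 and 189 FPKM in Ad-PDK4-labelled ones. Its log2 fold change was 1.26 (SE 0.05, limma adjusted p = 1.5e-06). H2-T22 (chr17:36037128-36042747, minus strand), a ligand of certain gamma-delta T cell receptors, went from 33.9, 34.8 and 35.2 FPKM to 123, 131 and 129 FPKM (log2 fold change 1.88, SE 0.05, limma adjusted p = 1.1e-07).

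H2-T10 (chr17:36115876-36121465, minus strand), close in sequence to H2-T22 and annotated as a polymorphic pseudogene, had 1.61, 1.799 and 1.71 FPKM in Ad-Con-labelled libraries and 6.81, 6.59 and 6.37 FPKM in Ad-PDK4-labelled ones. It rose by 1.89 on the log2 scale (SE 0.08, limma adjusted p = 1.8e-06), beside 1.88 for H2-T22. H2-T22 and H2-T10 share 6.92% and 7.06% of their windows with each other, and 24.01% and 22.5% with the antisense genes A930015D03Rik and BC023719. A930015D03Rik had a mean of 0.178 FPKM in Ad-Con-labelled libraries and 0.0301 FPKM in Ad-PDK4-labelled ones, and BC023719 had 0 reads. A930015D03Rik also overlaps H2-T24 and H2-T23, and H2-T10 lies within Gm7030, a gene on the same strand with means of 0.0177 and 0.271 FPKM. H2-T24 (chr17:36005695-36020560, minus strand) had 1.28, 1.46 and 1.57 FPKM against 3.65, 4.16 and 2.95 FPKM (log2 fold change 1.25, SE 0.15, limma adjusted p = 3.6e-04). H2-T3, which encodes the thymus leukaemia antigen of the gut epithelium, had 0, 0 and 3 reads against 1, 5 and 3.

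The M group was mostly silent. Of its 14 genes only H2-M3 passed the filter, and it is the one that presents N-formylated peptides. H2-M3 (chr17:37270220-37274484, plus strand) stood at 7.995, 9.82 and 8.02 FPKM in Ad-Con-labelled libraries and at 15.8, 14.9 and 16.1 FPKM in Ad-PDK4-labelled ones (log2 fold change 0.86, SE 0.09, limma adjusted p = 1.8e-04), short of a 2-fold change. H2-M5 had 26, 21 and 22 reads against 22, 14 and 25, and the groups overlapped. H2-M10.2 had 5, 2 and 0 reads against 3, 6 and 7, and H2-M2 had 0 reads apart from 5 in 1 library labelled Ad-PDK4. H2-M10.6 and H2-M6-ps had at most 3 reads in any library. H2-M1, H2-M9, H2-M10.1, H2-M10.3, H2-M10.4, H2-M10.5, H2-M10.5-ps1 and H2-M11 had 0 reads in all 6 libraries. Several genes of the M10 family are known from the vomeronasal organ.

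**Figure D3:**
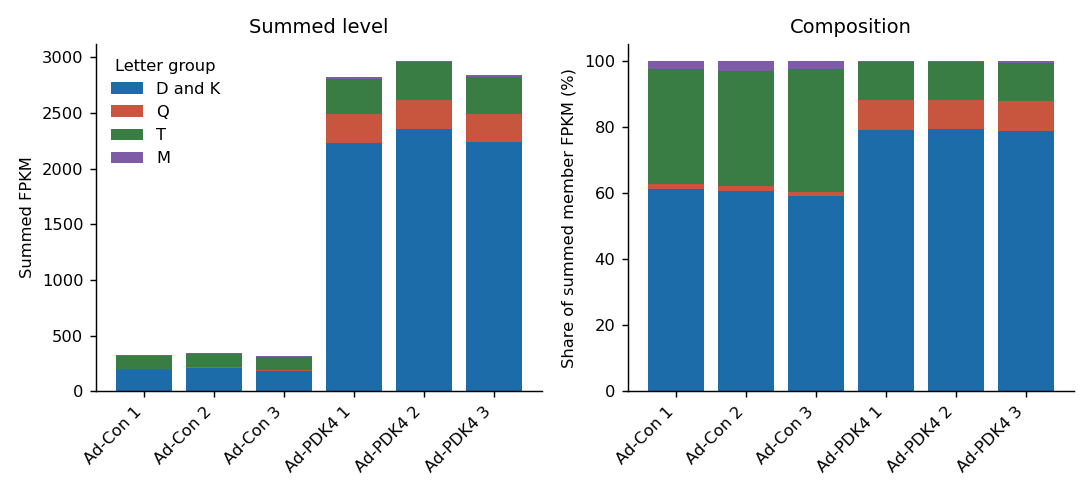
Left, summed FPKM of the heavy chain genes in each library, stacked by letter group; right, the same as a share of the summed heavy chain FPKM in percent. The sum goes from between 315 and 346 to between 2823 and 2971 FPKM, and the T share (green) shrinks while the D and K (blue) and Q (orange) shares grow.

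Summed over all 30 genes, heavy chain mRNA went from 328 ± 16.2 to 2877 ± 81.8 FPKM (SD, n = 3), or from 0.105% ± 0.00469 to 0.946% ± 0.0232 of the summed FPKM of all genes. These sums were not tested. The D and K genes went from 198 ± 11.98 to 2276 ± 72.2 FPKM, which is 11.5-fold, the Q genes from 4.59 ± 0.351 to 258 ± 2.12 FPKM, which is 56.3-fold, the T genes from 117 ± 4.66 to 327 ± 9.44 FPKM, which is 2.80-fold, and the M genes from 9.24 ± 1.08 to 16.4 ± 0.787 FPKM, which is 1.77-fold. The mix therefore changed with the amount. The share of the D and K genes in the heavy chain sum was 60.2% ± 1.17 in Ad-Con-labelled libraries and 79.1% ± 0.290 in Ad-PDK4-labelled ones, and that of the Q genes 1.40% ± 0.0629 and 8.98% ± 0.182. The share of the T genes was 35.6% ± 1.30 and 11.4% ± 0.155.

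The order of the levels also differed between the groups. In the libraries labelled Ad-Con H2-D1 led, followed by H2-T23 and H2-K1, whose ranges overlapped, then H2-T22, then H2-K2 and H2-M3, whose ranges also overlapped, and then H2-Q4, H2-T10 and H2-T24. In the libraries labelled Ad-PDK4 H2-D1 and H2-K1 overlapped at the top, followed by H2-T23, H2-Q4, H2-T22, H2-Q6 and H2-K2, each apart from its neighbours. H2-Q5, H2-M3 and H2-Q7 came next, at 18.7 ± 1.67, 15.6 ± 0.613 and 15.6 ± 0.412 FPKM, with the ranges of H2-M3 and H2-Q7 overlapping.

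**Figure D4:**
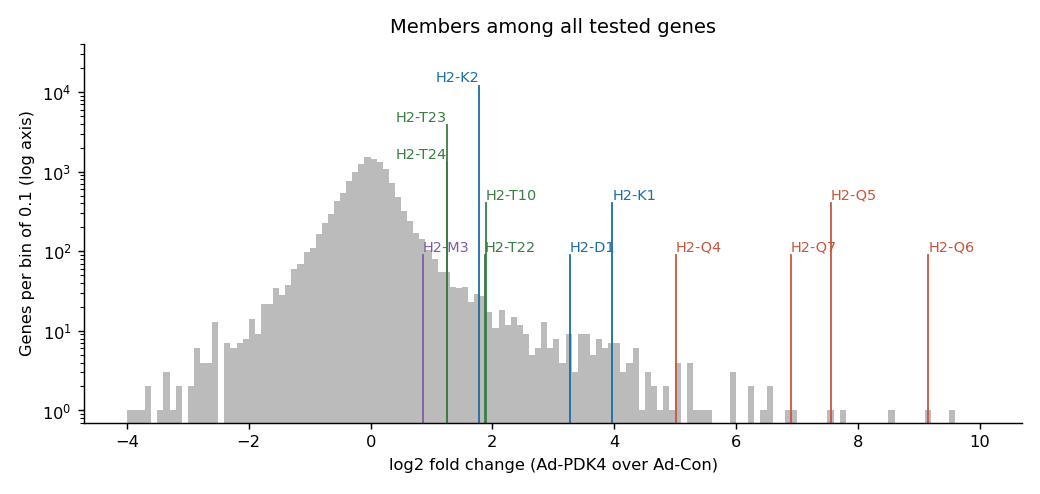
Distribution of log2 fold changes (Ad-PDK4 over Ad-Con libraries) over the 13423 tested genes in bins of 0.1, with the number of genes on a log axis and a vertical line at each tested heavy chain gene, coloured by letter group; line heights carry no value. All 12 lines lie to the right of 0, with H2-M3 nearest and H2-Q6 farthest. For H2-Q5, H2-Q6 and H2-Q7 the filter fixed the side, and the place of the line depends on the pseudocount.

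The heavy chains need partners to be loaded and to reach the surface, and most of a list of 20 such genes and their regulators was higher too. Of the 20, all were tested, 15 were higher, none was lower and 5 did not pass the test, against 21.8% of all tested genes higher. The median log2 difference was 0.95 beside -0.0031 over all genes. Among them 10 were called higher, against 3.95% of all tested genes, and 1 of the 10, Nlrc5, had an Ad-Con mean under the filter. B2m, the light chain, stood at 1035 to 1104 FPKM in Ad-Con-labelled libraries and at 3697 to 4387 FPKM in Ad-PDK4-labelled ones (log2 fold change 1.94, SE 0.07, limma adjusted p = 6.4e-07). The summed heavy chain FPKM was 0.310, 0.314 and 0.305 of the B2m FPKM in Ad-Con-labelled libraries and 0.675, 0.804 and 0.647 in Ad-PDK4-labelled ones. Heavy chain mRNA thus came to a larger proportion of B2m mRNA in Ad-PDK4-labelled libraries, without overlap between the groups.

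Nlrc5, the class I transactivator, had 38, 44 and 40 reads in Ad-Con-labelled libraries and 682, 702 and 794 in Ad-PDK4-labelled ones. This took it from 0.258 ± 0.0376 to 4.46 ± 0.248 FPKM, and the fitted log2 change was 3.67, from 2.12 to 4.11 with other pseudocounts or limma-voom. Like the 3 Q genes it passed the filter only through the Ad-PDK4-labelled libraries, and no p-value is given. Irf1, an interferon-induced activator, rose by 1.35 on the log2 scale, and Irf2 by 0.42. The genes of the factors that bind the class I promoter with NLRC5 did not pass the test, at 0.05 for Rfx5, -0.03 for Rfxap and -0.26 for Rfxank on the log2 scale.

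The immunoproteasome subunits, which replace constitutive subunits and cut proteins into class I peptides, were among the partners that rose most. Psmb8 went from 1.68 ± 0.301 to 40.3 ± 0.806 FPKM (SD, n = 3, log2 fold change 4.52, limma adjusted p = 1.1e-07), Psmb9 rose by 2.71 and Psmb10 by 1.95. The activator subunits Psme1 and Psme2 rose by 1.05 and 0.84. For the peptide transporter, Tap1 went from 11.997 ± 0.292 to 31.5 ± 1.98 FPKM and Tap2 from 13.8 ± 0.476 to 31.0 ± 1.87 FPKM, log2 fold changes of 1.38 and 1.16. The trimming peptidase Erap1 rose by 1.28, and the peptide editors Tapbp (tapasin) and Tapbpl (TAPBPR) by 0.83 and 0.80. The general chaperone Calr rose by 0.22, while Canx and Pdia3 stood at -0.07 and 0.07 on the log2 scale and did not pass the test.

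**Figure D5:**
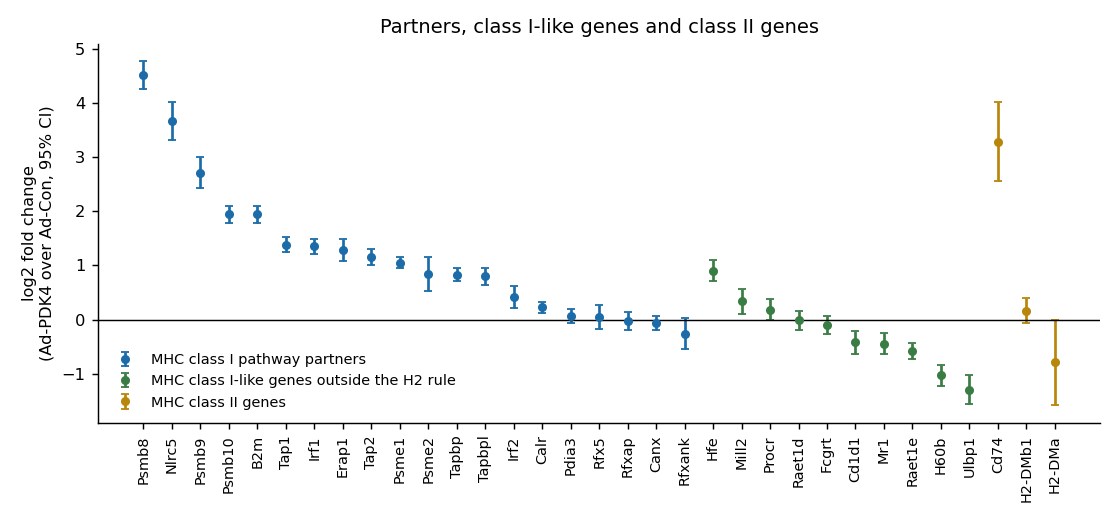
log2 fold change (Ad-PDK4 over Ad-Con libraries, with 95% confidence intervals from limma) of the tested class I pathway partners (blue), class I-like genes outside the H2 group (green) and class II genes (gold). Psmb8 and Nlrc5 lead the partners at 4.52 and 3.67, the class I-like genes run from 0.90 to -1.30, and Cd74 stands apart among the class II genes at 3.29. Nlrc5 and Cd74 passed the filter only through the Ad-PDK4-labelled libraries, and their points depend on the pseudocount.

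Genes with a class I-like fold that lie outside the H2 group were not all on one side. Of 18 listed, 14 were matched in the table and 10 were tested, with 2 higher, 5 lower and 3 that did not pass the test, and a median log2 difference of -0.26. Over all tested genes 21.8% were higher and 20.8% lower, and 2 of 10 higher is close to that share. Of the 4 tested ligands of the activating receptor NKG2D, 3 fell. Raet1e spans both H60b and Raet1d on the same strand of chromosome 10, so their gene models overlap. How reads were divided among these 3 genes was not examined. Ulbp1 went from 5.43, 4.95 and 5.33 FPKM in Ad-Con-labelled libraries to 2.32, 1.76 and 2.17 FPKM in Ad-PDK4-labelled ones, a fall by 1.30 on the log2 scale (SE 0.11, limma adjusted p = 8.0e-05). H60b fell by 1.03 and Raet1e by 0.58 on the log2 scale, and Raet1d differed by -0.02 and did not pass the test.

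Mr1, which presents vitamin B metabolites, fell by 0.45 on the log2 scale, and Cd1d1, which presents lipids, by 0.42. Hfe, a regulator of iron uptake that pairs with B2m, rose by 0.90 (limma adjusted p = 1.2e-04), and Mill2 rose by 0.34 (limma adjusted p = 0.029), though it did not pass the test in 6 of the 15 alternatives in which it was tested. Fcgrt, the neonatal Fc receptor, stood at -0.10 and Procr, the protein C receptor, at 0.18, and neither passed the test. Ulbp1 and H60b were the only ones called, both lower, against 2.68% of all tested genes called lower.

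The class II genes, whose products present peptides to CD4 T cells on professional antigen-presenting cells, passed the filter in 3 of 11 cases. Cd74, the invariant chain, had 4, 1 and 3 reads in Ad-Con-labelled libraries and 42, 44 and 62 in Ad-PDK4-labelled ones, and the counting interval of its ratio was 8.87 to 42.3. It too passed the filter only through the Ad-PDK4-labelled libraries, and its fitted log2 change was 3.29, from 1.35 to 4.20 with other pseudocounts or limma-voom. H2-DMb1 stood at 0.16 and H2-DMa at -0.79 on the log2 scale, and neither passed the test. The defining chains H2-Aa and H2-Ab1 had at most 1 and 3 reads in any library, and H2-Oa, H2-Ob, H2-DMb2 and H2-Eb2 had 0. H2-Eb1, under the filter, had 7, 7 and 6 reads in Ad-Con-labelled libraries and 8, 9 and 16 in Ad-PDK4-labelled ones. Its ratio was 1.60 with a counting interval of 0.891 to 2.94. Ciita, the class II transactivator, had 12, 5 and 0 reads in Ad-Con-labelled libraries and 1, 0 and 2 in Ad-PDK4-labelled ones. The class II list was thus mixed. H2-Aa and H2-Ab1 were at the floor, Cd74 and H2-Eb1 had more reads in Ad-PDK4-labelled libraries, and Ciita had fewer in sum. What this says of the cells in the cultures was not tested.

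Markers of other cells that express class I genes strongly were looked at beside these results. Of 12 macrophage and leukocyte markers 6 had 0 reads in every library, among them Ptprc (CD45) and Tyrobp, and Adgre1 had 1 read in all. The summed FPKM of these markers was 14.97 to 18.1 in Ad-Con-labelled libraries and 6.08 to 7.57 in Ad-PDK4-labelled ones, most of it Cd68, which fell by 1.74 on the log2 scale (limma adjusted p = 4.4e-04), and Lyz2 did not pass the test. Csf1r, under the filter, went the other way, with 11, 23 and 35 reads in Ad-Con-labelled libraries and 56, 62 and 61 in Ad-PDK4-labelled ones, a ratio of 2.52 with a counting interval of 1.90 to 3.37. Of 11 dendritic, B and T cell markers 9 had 0 reads, including Itgax and Cd3e, and no marker had more than 7 reads. The endothelial markers summed to 1.24 to 1.54 FPKM and 1.28 to 1.56 FPKM, with 3 to 17 reads of Pecam1, and Kdr and Egfl7 did not pass the test.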

How the data were processed

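RNA-seq libraries of MASMCs (3 per label) were sequenced as paired-end reads per the study's methods. Per the labels the tools included fastp, HISAT2 2.0.5, featureCounts 1.5.0-p3 and DESeq2 1.20.0. The labels and the methods name different library kits, and the strand setting is not given in the sources used here. The authors deposited FPKM per gene and library, not pooled, with gene lengths. Per the labels the build was GRCm39, but coordinates in the table matched GENCODE mouse release 21 (GRCm38) for 98.3% of 54495 shared identifiers, so GRCm38 is used. H2-K1 and H2-K2 are the members whose coordinates differ there. FPKM times length gave whole multiples of 1 read in 100% of values (tolerance 0.01), and these multiples are called reads, 17588942 to 21861872 per library. They set the precision of low genes.

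Groups came from the treatment labels. FPKM was tested as log2(FPKM + 0.1), all 6 libraries, no covariates, with limma 3.58.1 in R 4.3.3 (empirical Bayes with trend and robust) over the 13423 genes with a mean of at least 0.5 FPKM, with Benjamini-Hochberg adjustment. Every log2 fold change is on this scale, which understates low genes. Called means an adjusted p below 0.05 and a fold of at least 2. limma was tested on simulated data. A count model was not used, since the unit is FPKM, and limma-voom on the recovered reads served as an alternative. Other alternatives were the pseudocount (1 or 0.01), the filter (none, or a mean of at least 5 FPKM), TPM, quantile and median-of-ratios scaling, the plain empirical Bayes fit, a block for the replicate number, and leaving out each library. Ratios of summed reads carry exact 95% intervals. The floor was 3 reads per library.

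Named were all members, the targeted gene, B2m, Nlrc5, Tap1, Tap2, Tapbp, Tapbpl, Erap1, Psmb8, Psmb9, Psmb10 and any other called partner, all tested genes of the class I-like, class II and marker lists, and the defining markers. Partners that were tested but not called, and other genes under the filter, lie outside this rule and were named after their values were seen. Some housekeeping genes are not reported here. Members and lists were chosen with earlier results of these data known.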

Additional observations from a re-analysis of the deposited data

How the results depend on the processing

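The 12 heavy chain results kept their direction and stayed below an adjusted p of 0.05 in all 178 values from 15 alternatives. For H2-Q5, H2-Q6 and H2-Q7 the filter fixed the direction, so their part of these values is no check. Only the values of the other 9 genes are. The other one, median-of-ratios scaling, gave every library the same factor and could change nothing. With a pseudocount of 1, H2-T24 went to 0.91 on the log2 scale, under the 2-fold limit, and 10 were called. The number of heavy chain genes higher at adjusted p below 0.05 ran from 10 (mean of at least 5 FPKM, which leaves out H2-T24 and H2-T10) to 13 (no filter, which adds H2-Q10), and the number called from 9 to 12. With another pseudocount or limma-voom the log2 fold change ran from 4.30 to 10.87 for H2-Q5, 6.23 to 11.15 for H2-Q6, 4.00 to 9.28 for H2-Q7, 2.12 to 4.11 for Nlrc5 and 1.35 to 4.20 for Cd74.

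Over all genes 258 were called higher and 114 lower with a mean of at least 5 FPKM (fewer genes tested), and 153 lower with a pseudocount of 1, beside 530 and 360. limma-voom called 553 higher and 407 lower, 11 heavy chain genes among the former. The D and K sum differed by 3.67 on the log2 scale under quantile normalization, beside 3.52. Class I-like genes higher numbered 1 without a filter, 0 with a mean of at least 5 FPKM, and 1 to 2 when a library was left out, with 1 without Ad-Con replicate 1, Ad-Con replicate 3 or Ad-PDK4 replicate 1; 3 were lower and 0 class II genes higher at 5 FPKM. Without Ad-Con replicate 2, 1 partner was lower (range 0 to 1). Of genes that missed the test, Rfxap turned to 0.0083 and Raet1d to 0.024 under TPM, and with 1 library left out Rfxap ran from -0.089 to 0.0037, Rfx5 from -0.051 to 0.12 and Raet1d from -0.074 to 0.048. The causes were not tested.

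Same-numbered libraries did not deviate together (correlations -0.046, -0.031 and -0.0013), which gave no sign that the numbers pair them. These values cannot show whether same-numbered libraries shared an animal or a preparation. With the replicate block 12 heavy chain genes were higher and 11 called, and 1 class I-like gene was higher. The H2-K1 to H2-D1 difference of 0.69 cannot change with the block, and its exact permutation p was then 0.25, the smallest that 3 pairs allow.

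Depth limits the 18 untested members, and 3 libraries per label limit the exact test.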
